A study of Mus musculus with 6 samples.

Results

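The endosomal Toll-like receptors and the proteins that fold and escort them were followed in RAW 264.7 cells, a transformed mouse macrophage-like line, after treatment with a plant polysaccharide. The members were 5 receptors of nucleic acids (Tlr3, Tlr7, Tlr8, Tlr9 and Tlr13) and 3 chaperones (Unc93b1, Cnpy3 and Hsp90b1), taken by symbol, and all 8 were among the 22192 genes of the count table. For 3 libraries the cells spent 24 h in medium with 200 µg/mL of ASPS-A1, a polysaccharide obtained from the leaves of Acanthopanax senticosus. The other 3 libraries carry the label control, and what those cells received is not stated. Both groups are the same line (strain label BALB/c). No source states that the libraries came from separate cultures, so p-values measure only the spread between these samples, which may be technical. Poly(A)-selected RNA was sequenced and counted per gene.

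Nucleic acid receptors are made in the endoplasmic reticulum and work in endosomes and lysosomes, where they meet RNA or DNA of engulfed microbes and dead cells. UNC93B1 is a membrane protein that escorts them out of the endoplasmic reticulum and stays with them. GP96, encoded by Hsp90b1, folds most Toll-like receptors there with the help of its co-chaperone CNPY3. In endosomes, proteases cut the receptor ectodomains before ligands can activate them, and the adaptors MyD88 or TRIF then pass the signal on.

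Library totals were 19989318 to 22179544 counts with ASPS-A1 and 23113454 to 26137127 in control. Values below are normalised counts (CPM) on library sizes scaled by the trimmed mean of M-values (TMM), with SD over n = 3 libraries per group, and each log2 fold change is ASPS-A1 minus control, given with a standard error (SE) and a Benjamini-Hochberg adjusted p from the quasi-likelihood test of edgeR over 11686 genes. All 8 macrophage markers examined had enough counts to test, though Mertk had at most 23 in any library. Of these markers 6 rose, where 32.4% of all genes tested rose. Their summed level was 2826 to 2970 CPM with ASPS-A1 and 1933 to 1955 CPM in control. Csf1r and Mertk were not past the threshold. Most markers of other cell types were at or near 0. Cd3e, Cd3g, Ly6d and Klk1 had 0 counts in all 6 libraries, and no marker in the fibroblast list had more than 6 counts in any library. Of the plasmacytoid dendritic cell list, Tcf4 fell and Cox6a2 rose, and the list summed to 80.4 to 84.2 CPM with ASPS-A1 and 90.4 to 102 CPM in control. Of the B cell list, Cd79b alone reached the test and was not past the threshold (summed level 31.8 to 38.3 CPM with ASPS-A1 and 30.3 to 32.6 CPM in control). The T cell list summed to 0.424 to 0.924 CPM with ASPS-A1 and 0.484 to 0.638 CPM in control. The conventional dendritic cell list summed to 3.01 to 4.29 CPM with ASPS-A1 and 4.10 to 4.15 CPM in control. The part of these shifts in the results below was not tested.

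The comparison asks whether the polysaccharide changed transcripts of the nucleic acid receptors and whether those of their chaperones changed with them. The receptors fell, and no chaperone was called lower. All 3 receptors with enough counts to test (Tlr7, Tlr9 and Tlr13) were lower with ASPS-A1, by 1.47-fold to 6.23-fold, while Unc93b1 was 1.27-fold higher, Cnpy3 was 1.14-fold higher and Hsp90b1 was not past the threshold. Over all genes tested, 65.3% were called in either direction, 33.0% lower and 32.4% higher, so a call by itself sets no gene apart here. A called fall of at least 2-fold was found for 5.74% of the genes and one of at least 4-fold for 0.667%, and Tlr9 (4.07-fold) and Tlr13 were among them. Tlr9 was just past 4-fold, and its log2 fold change was −1.81 without control replicate 3, −1.93 without ASPS-A1 replicate 3, −1.92 with offsets for length and GC and −1.97 with limma-voom, short of 4-fold in each. A called rise of at least 2-fold was found for 3.69% of the genes, and no member was among them. In bulk RNA, fewer expressing cells and less RNA per cell cannot be told apart.

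**Figure D1:**
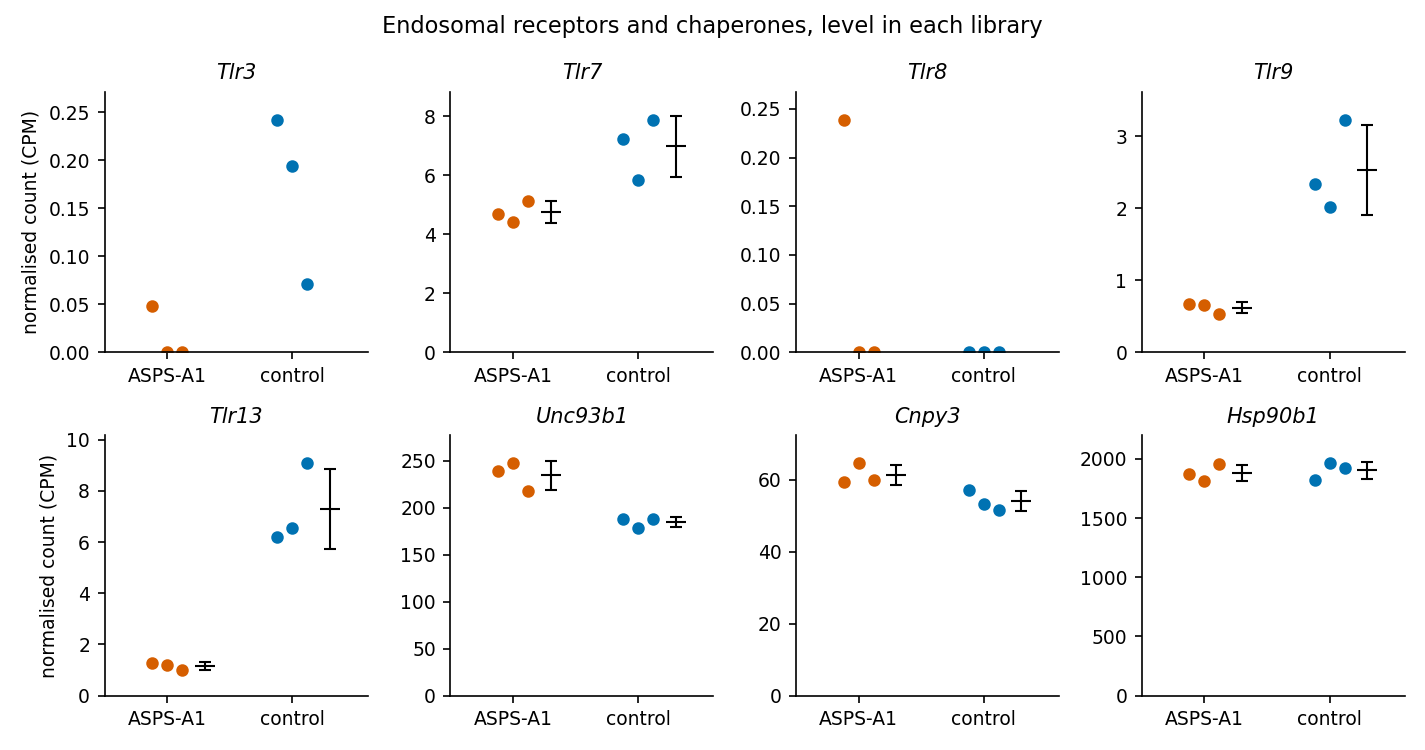
Normalised count (CPM, linear axes from 0) of each gene in each library, ASPS-A1 left and control right, with the mean and SD (n = 3) beside the points for the 6 tested genes. Tlr7, Tlr9 and Tlr13 were lower in every ASPS-A1 library than in any control library, Unc93b1 and Cnpy3 were higher, and Hsp90b1 overlapped.

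Tlr13, a mouse sensor of bacterial ribosomal RNA, had the largest fall of the 6 tested members. It stood at 1.29, 1.20 and 1.01 CPM with ASPS-A1, against 6.21, 6.54 and 9.07 CPM in control. The lowest control library was over the highest ASPS-A1 library, and control replicate 3 was the highest of the 6. These levels rest on 68 counts over the ASPS-A1 libraries and 579 over the control libraries. The log2 fold change was −2.64 ± 0.23 (SE), a 6.23-fold fall (edgeR adjusted p = 3.09e-14). Without control replicate 3 it was −2.45 (adjusted p = 2.05e-10).

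Tlr9, which recognises unmethylated CpG DNA, was at 0.668, 0.652 and 0.530 CPM with ASPS-A1, against 2.34, 2.01 and 3.23 CPM in control. The groups did not overlap, as was the case for 68.5% of all genes tested. The ASPS-A1 libraries held 36 Tlr9 counts in all and the control libraries 201. The log2 fold change was −2.03 ± 0.35 (SE), a 4.07-fold fall (edgeR adjusted p = 2.11e-06).

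Tlr7, a receptor of single-stranded RNA, was per exon length the most abundant of the 5 receptors with ASPS-A1 and fell least of the 3 tested. It had 4.68, 4.40 and 5.14 CPM with ASPS-A1, against 7.22, 5.85 and 7.87 CPM in control, again with no overlap. The log2 fold change was −0.56 ± 0.17 (SE), a 1.47-fold fall (edgeR adjusted p = 0.0031). A test against a fold of 1.5 (glmTreat of edgeR), passed by 14.5% of all genes, called Tlr13 (adjusted p = 3.09e-11) and Tlr9 (adjusted p = 0.000223) and did not call Tlr7 (adjusted p = 0.956).

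Tlr3, a receptor of double-stranded RNA, and Tlr8, which lies beside Tlr7 on the X chromosome, were too sparse to test. Tlr3 had 1, 0 and 0 counts with ASPS-A1, against 6, 5 and 2 counts in control. The ratio of the scaled sums was 0.104 (exact binomial 95% interval 0.00245 to 0.693), which covers counting error only. Without the filter on low counts the Tlr3 difference had an edgeR adjusted p of 0.0904, and DESeq2 gave 0.126. The exons of Tlr3 share 7.32% of their length with the gene model Gm45542, and whether counting used strand is not stated. Tlr8 had 5, 0 and 0 counts with ASPS-A1 and 0 counts in every control library. A one-sided 95% bound of 3 counts over the control libraries corresponds to 0.0381 CPM. The upper end of the two-sided exact Poisson 95% interval was 3.69 counts. All 5 Tlr8 counts came from ASPS-A1 replicate 1, and without the filter its adjusted p was 0.0844 (edgeR). Both genes were at the limit of detection at this depth.

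**Figure D2:**
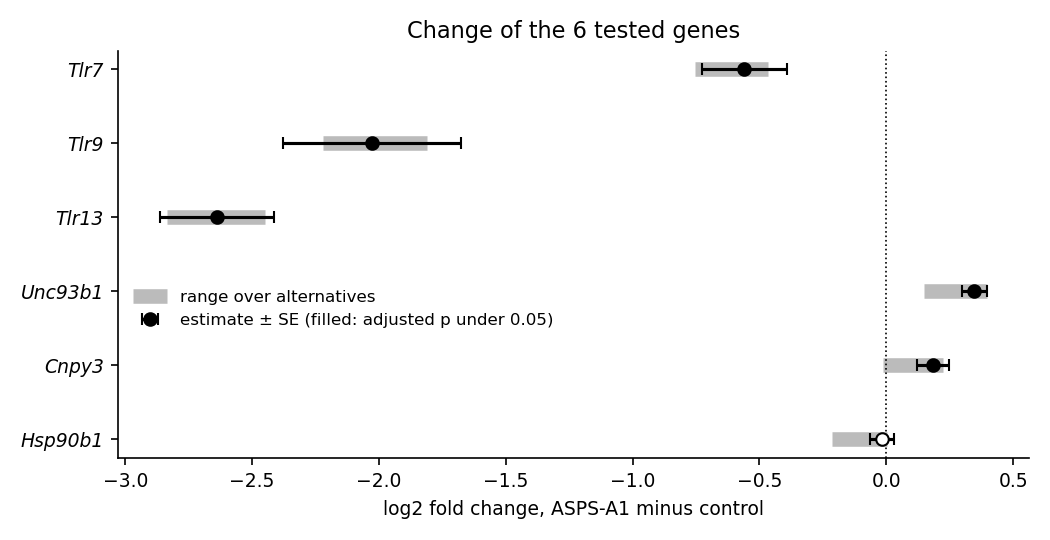
Log2 fold change (ASPS-A1 minus control) of the 6 tested genes with its SE, filled where the adjusted p was under 0.05, over a grey bar for the range of 18 alternative analyses. The 3 receptors lie left of 0 in every alternative, Unc93b1 lies right of 0 in every alternative, and the bars of Cnpy3 and Hsp90b1 touch or cross 0.

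The make-up of the receptor transcripts differed between the groups. Per kilobase of exon, Tlr7 made up 71.1% ± 4.94 of the receptor counts with ASPS-A1 and 41.3% ± 3.29 in control (SD, n = 3 each). Tlr13 made up 16.6% ± 2.05 with ASPS-A1 and 40.6% ± 3.33 in control. For both genes the groups did not overlap. In control, Tlr7 (1.71 ± 0.253 CPM per kilobase) and Tlr13 (1.69 ± 0.364) stood at levels that did not differ beyond their spread, with Tlr9 below them at 0.726 ± 0.180. With ASPS-A1 the level of Tlr7 (1.16 ± 0.0911 CPM per kilobase) was above that of Tlr13 (0.270 ± 0.0334), and Tlr9 was lower still at 0.177 ± 0.0218. Shares within a library do not depend on how libraries are scaled. Their precision is set by 115 to 145 receptor counts per library with ASPS-A1 and 377 to 571 in control.

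**Figure D3:**
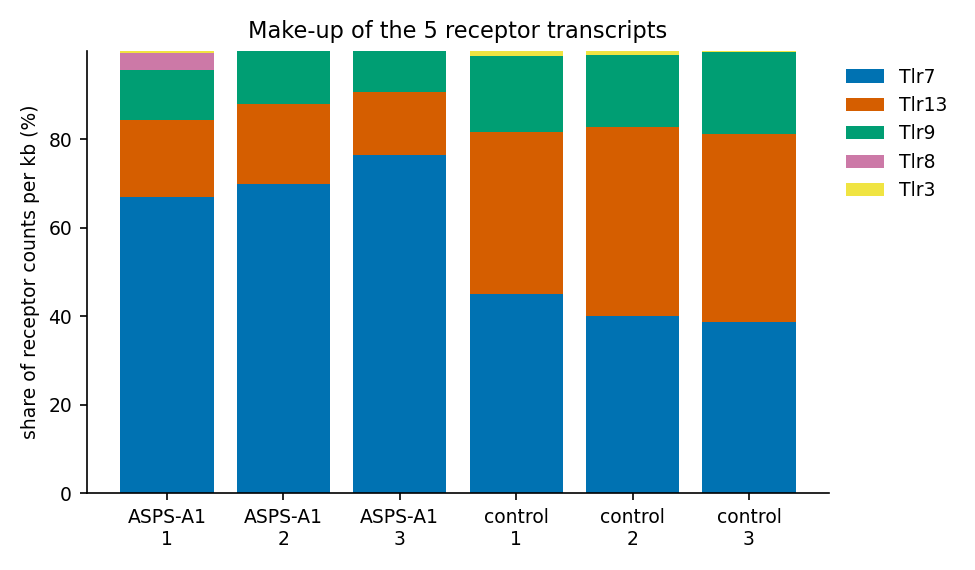
Share of each receptor in the summed counts per kilobase of the 5 receptors (%, stacked bars), with the ASPS-A1 libraries left and the control libraries right. Tlr7 fills 66.9% to 76.5% of each ASPS-A1 bar and less in each control bar, from 38.7% in the lowest.

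Unc93b1, the escort of all 5 receptors, moved the other way. It had 239, 247 and 218 CPM with ASPS-A1, against 188, 179 and 188 CPM in control. The groups did not overlap, which held for 68.5% of all genes tested. The log2 fold change was 0.35 ± 0.05 (SE), a 1.27-fold rise (edgeR adjusted p = 3.82e-08). With scaling by library totals alone it was 0.15 (adjusted p = 0.00726). The median over all tested genes was −0.021 with TMM factors and −0.22 with library totals alone.

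Cnpy3 showed a small rise that depended on the scaling. It was at 59.4, 64.5 and 60.0 CPM with ASPS-A1, against 57.1, 53.1 and 51.7 CPM in control. These values did not overlap, like those of 68.5% of all genes tested. The log2 fold change was 0.18 ± 0.06 (SE, edgeR adjusted p = 0.0108). With scaling by library totals alone it was −0.012 (adjusted p = 0.883), and the call also ended with offsets for length and GC content of transcripts (0.058, adjusted p = 0.403), without ASPS-A1 replicate 2 (adjusted p = 0.0601) and without control replicate 3 (adjusted p = 0.0684).

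Hsp90b1 was by far the most abundant member and hardly differed between groups. It had 1871, 1817 and 1955 CPM with ASPS-A1, against 1823, 1962 and 1925 CPM in control, and the ranges overlapped. The log2 fold change was −0.017 ± 0.047 (SE, edgeR adjusted p = 0.764). With scaling by library totals alone it was −0.21 (adjusted p = 3.39e-05), close to the −0.22 median of all genes under that scaling. Its exons share 15.7% of their length with other annotated genes.

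Each receptor was also set against Unc93b1 within the same library, where scaling cancels. Unc93b1 itself rose 1.27-fold, which lowers each ratio even where the numerator did not change. The 5 receptors together amounted to 2.17%, 1.89% and 2.29% of the Unc93b1 counts per kilobase with ASPS-A1, against 6.34%, 6.06% and 8.03% in control, a 3.22-fold lower mean. For Tlr13 the ratio was 0.348% ± 0.0279 with ASPS-A1 and 2.77% ± 0.562 in control. For Tlr9 it was 0.228% ± 0.0158 with ASPS-A1 and 1.19% ± 0.272 in control, and for Tlr7 1.51% ± 0.221 with ASPS-A1 and 2.80% ± 0.344 in control (SD, n = 3 each). None of these 3 ratios overlapped between groups, and the two-sided exact permutation p was 0.1 for each, the smallest that 3 libraries against 3 can give. Among the chaperones, Hsp90b1 stood at 605% ± 63.0 of Unc93b1 with ASPS-A1 and 775% ± 48.5 in control, also without overlap (exact permutation p = 0.1). Cnpy3 was at 29.8% ± 1.53 of Unc93b1 with ASPS-A1 and 33.3% ± 1.71 in control (exact permutation p = 0.2).

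**Figure D4:**
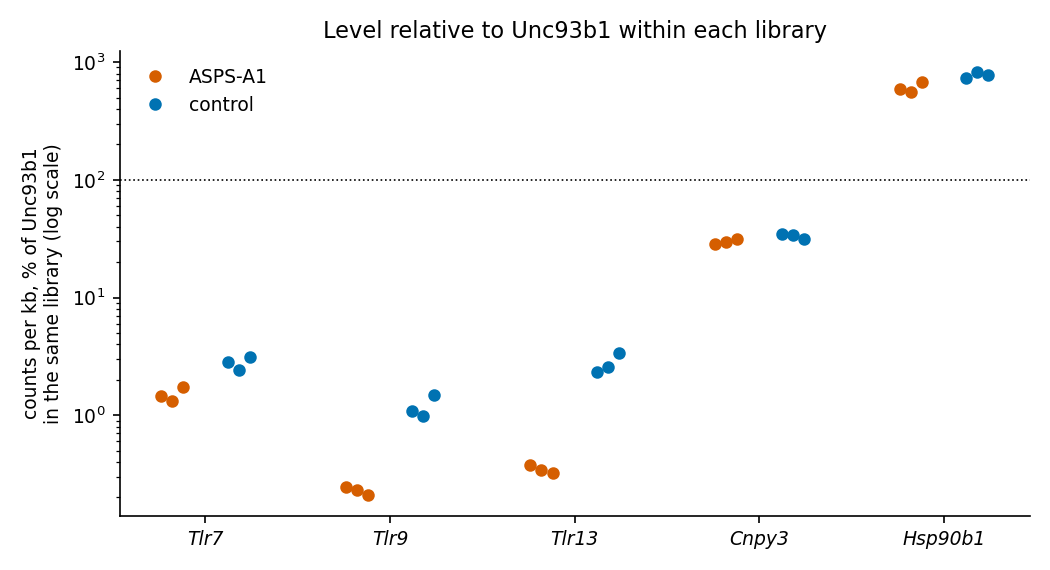
Counts per kilobase of each gene as a percentage of Unc93b1 in the same library (log axis), one point per library, ASPS-A1 left of control for each gene, with the dotted line at 100%. The 3 receptors sit at lower ratios in all ASPS-A1 libraries than in any control library, and the 2 chaperones shift far less.

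Most other genes for folding, or for removal of misfolded proteins, in the endoplasmic reticulum rose, while Hsp90b1 was not past the threshold. Together they are called ER folding genes below. Of 18 such genes, 13 rose, 2 fell and 3 missed the threshold, with a median log2 fold change of 0.45 against −0.021 over all genes tested. By calls, 32.4% of all genes tested rose and 33.0% fell. Hspa5, the main Hsp70-type chaperone of this compartment, rose 2.40-fold to 4984 ± 142 CPM with ASPS-A1, against 2080 ± 132 CPM in control (edgeR adjusted p = 3.12e-26). Herpud1 and Selenos, both of the pathway that removes misfolded proteins, had log2 fold changes of 1.26 and 1.00. P4hb, a protein disulfide isomerase, fell slightly (−0.13), and so did Edem1 (−0.31). The P4hb call ended without ASPS-A1 replicate 1 (−0.11, adjusted p = 0.0916), which left 1 fallen gene, and 4 genes fell with scaling by library totals alone. The ratio of Hspa5 to Hsp90b1 counts per kilobase was 2.53 ± 0.0227 with ASPS-A1 and 1.04 ± 0.0791 in control (SD, n = 3 each). Hspa5 had the largest rise of this list and Hsp90b1 hardly differed, so the ratio restates those changes and is no separate test.

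Many folding genes carry the ER stress response element, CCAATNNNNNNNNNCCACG, through which the unfolded protein response is known to act. It was searched on both strands in the 250 bases before each start site of RefSeq, where 0.113% of 32851 promoters hold it. Promoters were listed for 6 of the 8 members, and Hsp90b1 alone held a match, with 2 that do not overlap each other. Of 16 ER folding genes with a listed promoter, 6 held a match. These stretches are shown because they carry the same element beside unlike changes. They are from RefSeq on GRCm38.p6, read 5′ to 3′ along the gene, with the fixed letters of the element in capitals (CGTGG and ATTGG where it lies on the other strand).
Hsp90b1 (chr10:86705528-86705661, minus strand): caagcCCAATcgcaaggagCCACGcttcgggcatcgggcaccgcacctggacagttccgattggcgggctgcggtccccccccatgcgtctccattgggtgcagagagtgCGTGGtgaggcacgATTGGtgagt
Hspa5 (chr2:34772020-34772048, plus strand): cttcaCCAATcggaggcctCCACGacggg
Creld2 (chr15:88819515-88819543, plus strand): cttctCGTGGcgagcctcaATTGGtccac
Canx (chr11:50325795-50325823, minus strand): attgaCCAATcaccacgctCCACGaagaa
Dnajc3 (chr14:118937822-118937850, plus strand): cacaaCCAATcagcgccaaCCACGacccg
Beside the 1.26 of Hspa5, the log2 fold change was 0.83 for Creld2, 0.45 for Calr and 0.24 for Pdia6, which also hold a match and rose. Canx, which encodes calnexin, had −0.022 (edgeR adjusted p = 0.707) and Dnajc3 had 0.0083 (adjusted p = 0.906), next to −0.017 for Hsp90b1. The median log2 fold change was 0.34 for the 6 ER folding genes with a match and 0.49 for the 10 without one. Only exact matches within the 250 bases were counted, so variants or more distant copies would be missed. Whether the element bears on the changes was not tested. With scaling by library totals alone Pdia6 had 0.043 (adjusted p = 0.363).

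Genes that sort the receptors between compartments were called in both directions, at shares near those of all genes tested (32.4% higher and 33.0% lower). Of 23 such genes, 8 rose, 8 fell and 7 missed the threshold (median log2 fold change −0.0075), and 13 fell with scaling by library totals alone. Slc15a3, an endolysosomal peptide and histidine transporter, rose 3.50-fold to 281 ± 6.25 CPM with ASPS-A1, against 80.4 ± 2.12 CPM in control (edgeR adjusted p = 2.46e-32). Its relative Slc15a4, which is needed for signalling of Tlr7 and Tlr9, fell (−0.40). The exons of Slc15a3 share 28.1% of their length with other genes. Rab7b, a small GTPase that directs receptors to lysosomes, fell 3.50-fold to 22.3 ± 2.07 CPM with ASPS-A1, against 77.9 ± 1.92 CPM in control (adjusted p = 6.38e-26). Lrrc59, a membrane protein of the endoplasmic reticulum linked to receptor export in human cells, rose (0.66). Cnpy4, the paralog of Cnpy3, also rose (0.53), and Hps1, a subunit of a complex for lysosome-related organelles, fell (−0.95).

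Among the proteases that cut endosomal receptors or share their compartment, 4 of 7 tested rose, 2 fell and 1 missed the threshold (median 0.11). Lgmn was the weakest of the 4 rises (0.11, edgeR adjusted p = 0.0389). With each library left out in turn, 3 to 4 rose and 2 to 3 fell. With upper-quartile factors or library totals alone, 3 rose and 3 fell, and 3 rose without the filter on low counts. The shares over all genes tested were 32.4% higher and 33.0% lower. The cathepsin Ctsb rose 1.70-fold to 5042 ± 120.5 CPM with ASPS-A1, against 2968 ± 46.0 CPM in control (edgeR adjusted p = 3.37e-19). Ctsl (0.89, 26.8% of whose exon length is shared) and the convertase Pcsk7 (0.59) rose, and Ctsh (−0.42) and Ctss (−0.20) fell. Ctsk and Ctsf had too few counts to test.

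Of 12 genes for nucleases and other proteins that act on nucleic acids or nucleotides, 8 were tested. Among these, 3 rose, 1 fell and 4 missed the threshold (median 0.0075), beside 32.4% higher and 33.0% lower over all genes tested. Pld3 (0.70) and Pld4 (0.38), exonucleases of single-stranded nucleic acids in lysosomes, rose. Rnaset2a, a lysosomal ribonuclease, rose to 543 ± 8.98 CPM with ASPS-A1, against 348 ± 4.52 CPM in control. It has a close copy, Rnaset2b, and how shared reads were assigned is not given. Rnase4 fell 2.47-fold (adjusted p = 1.29e-20), with 13.4% of its exon length shared. With scaling by library totals alone 4 genes fell, and 2 fell with either upper-quartile factors or the offsets for length and GC.

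Of 21 signalling genes downstream of the endosomal receptors, 5 rose, 9 fell and 7 missed the threshold (median −0.043), and 14 fell with scaling by library totals alone. In the main fit, 32.4% of all genes tested were called higher and 33.0% lower. Ikbke, a kinase that activates interferon regulatory factors, rose 2.14-fold to 221 ± 6.48 CPM with ASPS-A1, against 103 ± 4.22 CPM in control (edgeR adjusted p = 8.31e-24). Irf7 (0.97), an interferon regulatory factor downstream of Tlr7 and Tlr9, rose, as did Ticam1 (0.84), which encodes TRIF, the adaptor of Tlr3. Of the other interferon regulatory factors listed, Irf5 fell (−0.32, edgeR adjusted p = 8.36e-05) and Irf8 was not past the threshold (0.067). Irf5 and Irf8 were added after their values were seen. The ubiquitin ligase Traf6 (−0.91), Irf3 (−0.70) and Map3k7 (−0.54), which encodes the kinase TAK1, fell.

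Nucleic acid sensors of the cytosol, which reach the same ligands by another route, were also called in both directions. Of 14 tested, 6 rose, 7 fell and 1 missed the threshold (median −0.10), where 32.4% of all genes tested rose and 33.0% fell. With each library left out in turn, 4 to 6 rose and 5 to 7 fell. DESeq2 called 5 higher and 5 lower, and library totals alone gave 4 higher and 8 lower. Among the rises, Zbp1 had at most 16 counts in any library. Oasl1 (1.67), Oas1a (1.23) and the RNA-binding antiviral protein Zc3hav1 (1.01) rose, and Oas3 (−0.50), the DNA sensor Cgas (−0.41) and the inflammasome sensor Aim2 (−0.39) fell. None of the falls named here reached 1.5-fold.

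Toll-like receptors and co-receptors of the cell surface were called in both directions, and so were integrins and other proteins folded by GP96. Both lists stand beside 32.4% higher and 33.0% lower over all genes tested. Of 9 tested Toll-like receptors and co-receptors of the cell surface, 5 rose and 4 fell (median 0.28), but under library totals alone 3 rose. Cd36 (0.96), the lipopolysaccharide co-receptor Cd14 (0.79) and Ly96 (0.69), its partner on Tlr4, rose. The Ly96 call ended with the length and GC offsets (0.097, adjusted p = 0.559). Tlr2, a receptor of bacterial lipopeptides, fell (−0.42), as did Cd180 (−0.30), whose call ended without ASPS-A1 replicate 3, control replicate 1 or control replicate 3 (adjusted p from 0.0716 to 0.107) and with DESeq2 (adjusted p = 0.0581). The larger falls in this list were in Tlr4, the lipopolysaccharide receptor, and Tlr6, a partner of Tlr2, which lie below the 10 CPM of the naming rule and were chosen after their values were seen. Tlr4 was at 3.58, 2.50 and 2.65 CPM with ASPS-A1, against 5.61, 5.42 and 7.44 CPM in control (log2 fold change −1.08, edgeR adjusted p = 5.02e-06). Tlr6 was at 4.06, 3.91 and 3.28 CPM with ASPS-A1, against 7.99, 8.09 and 7.83 CPM in control (−1.08, adjusted p = 1.70e-07). Neither gene overlapped between the groups, as was the case for 68.5% of all genes tested. Of the 4 tested Toll-like receptors of the surface, 3 thus fell, and Tlr1 (0.35, adjusted p = 0.0105) rose, a call that ended with library totals alone (adjusted p = 0.264), without control replicate 2 (adjusted p = 0.0651) and without ASPS-A1 replicate 3 (adjusted p = 0.0587). Lower transcript levels were thus found for receptors of both compartments. Of 9 tested integrins and other clients of GP96, 3 rose, 5 fell and 1 missed the threshold (median −0.18). Itgam (0.82, with 68.7% of its exon length shared), Itgb2 (0.64) and Itgal (0.45) rose, and Itga4 (−1.01), Lrp6 (−0.75) and Itgav (−0.71) fell.

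**Figure D5:**
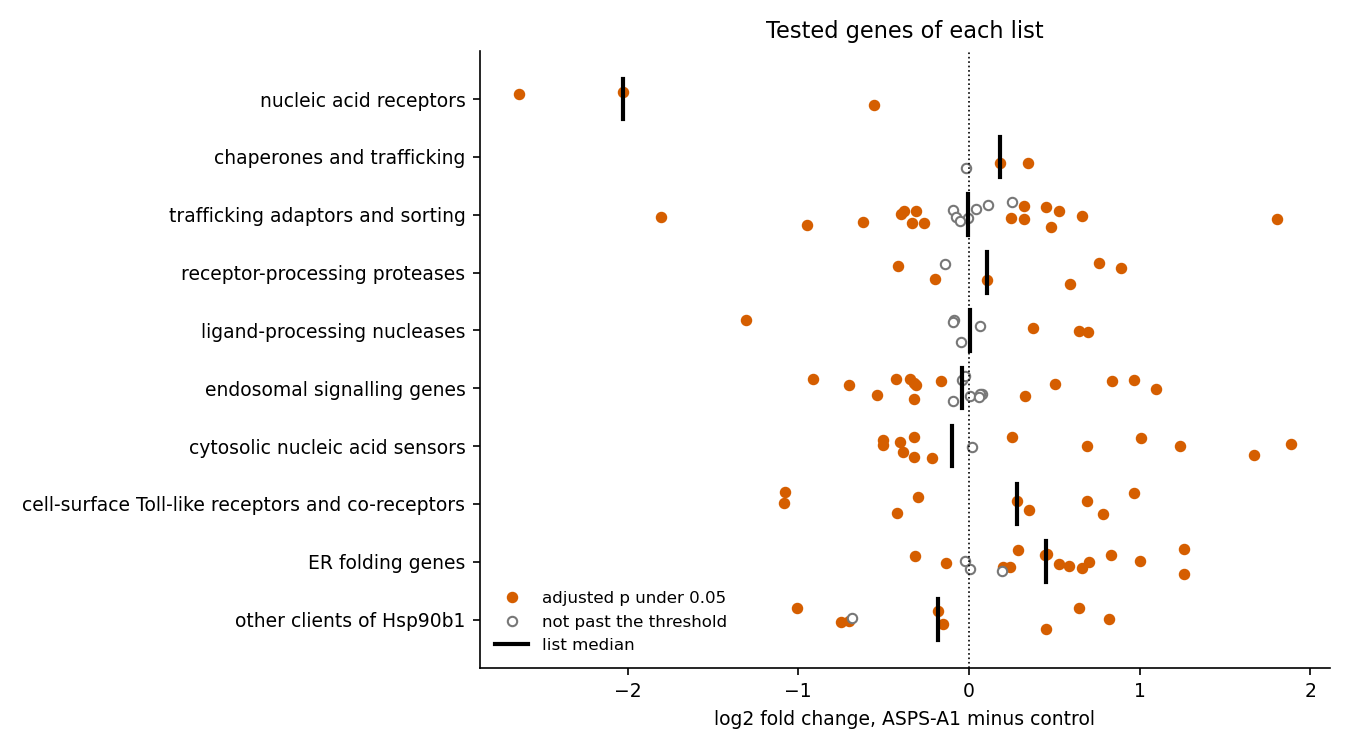
Log2 fold change (ASPS-A1 minus control) of each tested gene by list, filled where the adjusted p was under 0.05, with a black bar at the list median; vertical scatter only separates points. The 3 tested receptors lie between −2.64 and −0.56, and most of the ER folding genes lie right of 0.

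Over the 6 libraries, which form 2 groups, the genes whose centred log2 level lay nearest to that of Tlr13 were Hk2 (root mean square difference 0.122), Cx3cr1 (0.194) and Ankrd37 (0.212), out of 8204 genes of at least 10 CPM on average. Their log2 fold changes were −2.35, −2.69 and −2.59, and 26.4% of the exon length of Ankrd37 is shared with other genes. Nearest to Unc93b1 were Trappc4 (0.0092), Tecpr2 (0.028) and Gnb2 (0.029), with log2 fold changes of 0.35, 0.34 and 0.35. The exons of Trappc4 share 18.9% of their length with other genes.

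The depth of the libraries differed between the groups in the same direction as the receptor counts. After thinning to the smallest total, the log2 fold changes were −2.64 for Tlr13, −2.18 for Tlr9 and −0.56 for Tlr7, each past the threshold.

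On GRCm38 (GENCODE M21; the build used for counting is not given), Tlr7 lies at chrX:167304929-167330558, Tlr8 at chrX:167242696-167264329 and Tlr13 at chrX:106143204-106160493. Tlr9 lies at chr9:106222598-106226883, Unc93b1 at chr19:3935186-3949340, Cnpy3 at chr17:46735705-46752214 and Hsp90b1 at chr10:86690209-86705509. The exons of Tlr7, Tlr8, Tlr9, Tlr13, Unc93b1 and Cnpy3 overlap no exon of another annotated gene.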

How the data were processed

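The deposited table holds whole-number counts per gene symbol for 6 libraries, not normalized. Per the submitters' processing notes, the tools were HTSeq 0.9.1, HISAT2 2.1.0, DESeq 1.38.3 and fastp 0.22.0. For genome build, annotation, strand setting and treatment of shared reads, the sources used here give nothing. Genes were kept with filterByExpr of edgeR (minimum count 10, minimum total 15), which left 11686 of 22192. TMM-scaled counts were fitted across all genes with edgeR 4.0.16 in R 4.3.3 (robust glmQLFit, glmQLFTest, two-sided, threshold 0.05). SE is the absolute log2 fold change over the square root of F. The members, all gene lists and the naming rule were chosen with earlier results of these data known. The rule took, per list and direction, up to 3 called genes with the largest change and a mean of 10 CPM or more in the group where it was higher, and for 1 receptor and 1 chaperone the 3 genes with the nearest profile. The search for the promoter element and the genes shown beside it were chosen after their values were seen. Exon lengths were unions of GENCODE M21 exons and were found for 89.2% of symbols; 96.1% of tested genes had a length and GC content for the offsets (lowess span 0.3 per library). The fit was also run on simulated counts in which few genes were changed. That setting differs from these data, where most genes were called, so it does not bear on the choice of scaling. DESeq2 1.42.0 and limma 3.58.1 were alternatives. No library was a copy of another of its group, since chi-square over genes was 4.27 to 6.95 per degree of freedom. No column was left out. One marker of another cell type is not reported here, and the summed level of its list includes it.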

Additional observations from a re-analysis of the deposited data

How the results depend on the processing

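Tlr13, Tlr9 and Tlr7 stayed lower in all 18 alternatives, from −2.83 to −2.45, −2.22 to −1.81 and −0.75 to −0.47 on the log2 scale, and Unc93b1 stayed higher, from 0.15 to 0.40. Each kept its call except against a 1.5-fold threshold, where Tlr7 (−0.56), Unc93b1 (0.35) and Cnpy3 (0.18) lost it, 0 chaperones were higher, and 812 genes were higher and 880 lower. Cnpy3 lost its call with upper-quartile factors (0.13), with the length and GC offsets (0.058) and with library totals alone (−0.012), leaving 1 chaperone higher in each. Hsp90b1 was called lower with library totals alone (−0.21), which made 1 chaperone lower. The cause was not tested. Leaving out each library in turn gave 0.14 to 0.22 for Cnpy3 (call lost without ASPS-A1 replicate 2 or control replicate 3), −0.051 to 0.0047 for Hsp90b1 (above 0 without ASPS-A1 replicate 2, 0.0015, or control replicate 2, 0.0047) and 1 to 2 chaperones higher. The log2 ratio of receptors to Unc93b1 ran from −1.76 to −1.55.

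Libraries of the same number did not deviate together (correlations −0.0138, 0.00709 and 0.00398). With 3 libraries per group, these values cannot exclude that libraries of the same number were handled together. With a replicate block the log2 fold changes were −2.62 for Tlr13, −0.55 for Tlr7, 0.34 for Unc93b1 and 0.18 for Cnpy3, and no call of the 6 tested members changed. Low counts limit Tlr3 and Tlr8, and Tlr9 rests on 10 to 14 counts per ASPS-A1 library.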
